A study of Mus musculus with 6 samples.

Results

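Nuclear receptors are transcription factors whose activity is set by small lipid-soluble ligands, by metabolites or by their own abundance. The 41 described here were chosen as a gene family, by an exact match of their symbols to the 48897 genes of a single expression table, and all 41 were found. The table holds RNA sequencing of liver sinusoidal endothelial cells, the fenestrated lining of the liver's capillaries, from C57BL/6 mice aged 7 to 8 weeks and bead-purified with an antibody to CD146 (the Mcam protein). Both groups had an operation and were sampled on day 14: partial hepatectomy (PHx), in which part of the liver is removed, or a sham operation. Libraries 1, 3 and 4 of each group were used, 3 against 3, with no transgene or other treatment named in the labels. The labels do not state that each library is a separate animal, so p-values measure only the spread between these libraries, which may be technical.

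Most members bind DNA as pairs, many of them with a retinoid X receptor (RXR) as the partner, and switch between corepressors and coactivators when a ligand is bound. In liver, hepatocytes use FXR, PXR, CAR, HNF4A and PPARA to control bile acid, drug, glucose and fat metabolism. Stellate cells, the vitamin A storing pericytes of the sinusoid, are known for retinoic acid receptors and the vitamin D receptor, and endothelium for the orphan receptor COUP-TFII and for PPARG. These attributions are background and were used to sort the members into 7 classes. The sort does not say which cells gave the RNA.

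The labelled cell type could be seen in the markers. Stab1 and Stab2, scavenger receptors of the sinusoid, stood at 6676 ± 590 and 6195 ± 493 CPM (counts scaled to library size) in sham and at 3889 ± 1107 and 4062 ± 930 CPM in PHx (SD, n = 3). The 15 sinusoidal markers summed to between 37703 and 39940 CPM in sham and between 21272 and 32268 CPM in PHx. Markers of other liver cells were also present: the 18 stellate and fibroblast markers summed to between 2941 and 3946 CPM in sham and between 7625 and 8886 CPM in PHx. The 19 hepatocyte markers summed to between 1952 and 2585 CPM in sham and between 916 and 2126 CPM in PHx, and no marker of any list was at 0 in every library. Library totals ran from 38765116 to 51888481 counts. As an upper limit for a count of 0, a set value of 3 counts was used, which corresponds to between 0.0580 and 0.0795 TMM-scaled CPM (counting error only). In RNA from a mixed pool, fewer cells of a type and less RNA per cell cannot be told apart.

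Of the 39 receptors with enough counts to be tested, 2 rose after PHx, none fell and 37 were not called. The first of the called pair was Nr1h4, which encodes FXR, the bile acid receptor, and the other was Vdr, which encodes the vitamin D receptor. Calls rest on the edgeR quasi-likelihood test over 19033 genes, with a threshold of 0.05 on the p adjusted by Benjamini-Hochberg. By that rule 0.862% of all tested genes were called, 0.846% as higher and 0.0158% as lower, against 5.13% of the tested receptors. Vdr, which is part of that share, had enough counts to be tested in the PHx libraries only. The 2 calls became 1 without PHx 4 and 0 when any other single library was left out, with 3 to 7 receptors higher at an unadjusted p under 0.05 in these fits. The calls over all genes became 0 to 160 higher and 0 to 9 lower, so the share of receptors called is not stable. With all 6 libraries, 6 receptors had an unadjusted p under 0.05, 4 higher and 2 lower, or 15.4% against 12.7% of all genes. DESeq2 called 3 receptors, all higher and with Rora as the addition, or 7.69% against 4.18% of all genes (3.75% higher, 0.433% lower). In TMM-scaled CPM, the 3 libraries of PHx all lay above or all below the 3 of sham for 7 receptors. That is 17.9% against 20.5% of all genes. The median log2 fold change was -0.05 over the receptors and 0.03 over all tested genes.

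The sequence just upstream of the start site is shown for the called pair, and beside them for Rarg and Rxra, the most abundant stellate-class and hepatocyte-class members. None is printed for Nr2f2, the most abundant endothelium-class member, since its windows were mostly exonic or not listed. Sequences are from RefSeq (GRCm38.p6, the build of the files), which lists a window for 38 of the 41 members, and they are printed from 5′ to 3′ on the strand of the gene. Capitals mark AGGTCA, the core that many nuclear receptors bind, and GGGCGG, the GC box bound by SP1-like factors, searched on both strands (TGACCT and CCGCCC are their reverse complements). The Nr1h4 window is chr10:89506659-89506908 on the minus strand, which lies inside the gene's listed span and overlaps no annotated exon. The Vdr window is chr15:97908311-97908546 on the minus strand, shortened by 14 bases to leave out an annotated exon. The Rarg window is chr15:102257523-102257772 on the minus strand, and the Rxra window chr2:27676951-27677200 on the plus strand. Like that of Nr1h4, the Rxra window lies inside the gene's listed span and overlaps no annotated exon. Windows in which annotated exons took up a large part were left out. Where several starts remained, the farthest upstream of these is shown.
Nr1h4: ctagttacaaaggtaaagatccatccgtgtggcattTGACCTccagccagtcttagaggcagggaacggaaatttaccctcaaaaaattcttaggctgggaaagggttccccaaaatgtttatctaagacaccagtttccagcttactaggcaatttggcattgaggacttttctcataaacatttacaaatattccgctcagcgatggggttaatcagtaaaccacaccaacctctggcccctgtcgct
Vdr: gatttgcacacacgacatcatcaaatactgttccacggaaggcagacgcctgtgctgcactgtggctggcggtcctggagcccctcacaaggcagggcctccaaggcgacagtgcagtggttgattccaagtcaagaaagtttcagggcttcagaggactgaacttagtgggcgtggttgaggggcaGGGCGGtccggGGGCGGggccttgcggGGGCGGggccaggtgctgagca
Rarg: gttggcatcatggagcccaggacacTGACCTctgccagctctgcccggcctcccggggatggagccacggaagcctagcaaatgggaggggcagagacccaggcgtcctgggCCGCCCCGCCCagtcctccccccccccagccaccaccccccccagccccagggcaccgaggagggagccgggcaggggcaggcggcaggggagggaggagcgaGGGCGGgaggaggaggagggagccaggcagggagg
Rxra: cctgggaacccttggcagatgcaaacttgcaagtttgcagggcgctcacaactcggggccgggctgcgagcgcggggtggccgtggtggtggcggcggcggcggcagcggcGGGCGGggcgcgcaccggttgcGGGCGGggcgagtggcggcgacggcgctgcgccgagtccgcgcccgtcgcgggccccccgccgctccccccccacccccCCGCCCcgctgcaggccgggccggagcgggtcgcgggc

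The 4 windows differed in make-up. The Nr1h4 window had a GC content of 44.4%, below the median of 52.4% over 32851 windows of 250 bases, a single AGGTCA core and no GC box. The Vdr window had a GC content of 61.9%, 3 GC boxes in a row near the start and no AGGTCA core. The Rarg window had 3 GC boxes, a pair of them sharing a base, and 1 AGGTCA core, and the Rxra window had 3 GC boxes and no core. Of all windows, 14.0% held AGGTCA, 32.7% held GGGCGG and 12.4% held TATAAA, which none of the 4 windows held. Such matches describe the letters only and show no binding.

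Nr1h4 (chromosome 10, 89454234 to 89533646, mm10) was at 25.2, 22.1 and 18.0 CPM in Sham 1, 3 and 4 and at 44.4, 40.7 and 53.4 CPM in PHx 1, 3 and 4. Every PHx library was above every sham library. The mean rose from 21.7 ± 3.62 to 46.1 ± 6.56 CPM (SD, n = 3), a 2.12-fold difference, with a log2 fold change of 1.09 ± 0.16 (SE), a 95% interval of 0.70 to 1.47 and an edgeR adjusted p of 0.0353. In the deposited RPKM, which divides counts by gene length as well, Nr1h4 went from 8.90 ± 1.41 to 19.4 ± 2.68, and its mean level ranked 16th of the 41 receptors. The edgeR call was lost without Sham 1 (adjusted p = 0.0969), without Sham 3 (0.205), without Sham 4 (0.173), without PHx 1 (0.0855) and without PHx 3 (0.0546), and kept without PHx 4 (0.0499). DESeq2 on all 6 libraries gave an adjusted p of 1.69e-05.

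Vdr (chromosome 15, 97854427 to 97908296, mm10) was scarce in sham. It had 4, 9 and 6 counts in Sham 1, 3 and 4 and 47, 63 and 58 counts in PHx 1, 3 and 4, so that the groups were far apart on few counts. These are 0.106, 0.174 and 0.122 CPM in sham and 0.908, 1.29 and 1.21 CPM in PHx. The mean rose from 0.134 ± 0.0356 to 1.14 ± 0.201 CPM (SD, n = 3), a log2 fold change of 3.05 ± 0.51 (SE) with a 95% interval of 1.86 to 4.23 and an edgeR adjusted p of 0.0475. Vdr passed the filter on low counts through the PHx libraries only, so its entry into the test depended on the difference tested. It was at 0.263 ± 0.0364 RPKM after PHx, and its mean over the 6 libraries ranked 38th of the 41 receptors. The edgeR call was lost without Sham 1 (adjusted p = 0.182), Sham 3 (0.195), Sham 4 (0.225), PHx 1 (0.0938), PHx 3 (0.0982) or PHx 4 (0.106). It was also lost with upper-quartile scaling (0.0514) and limma-voom (0.0897), while DESeq2 gave 8.39e-05. Of 3 vitamin D target genes, none passed the filter on low counts: Cyp24a1, the enzyme that degrades active vitamin D, had a single count over all 6 libraries.

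Because stellate markers were higher after PHx and the 2 called receptors are known from stellate cells or hepatocytes, each was also divided by the markers of these cells in the same library, a description chosen after the values were seen and given with no test. Nr1h4 per Lrat, the retinol-esterifying enzyme of stellate cells, was 0.279, 0.321 and 0.219 in the sham libraries, against 0.322, 0.284 and 0.303 in the PHx libraries. These ranges overlap. Over the 18 stellate markers, the Nr1h4 ratio of PHx lay above sham for 4 markers and below for 7 and overlapped for 7. Against 19 hepatocyte markers it lay above for 18, and against 15 sinusoidal markers it lay above for 14. All PHx libraries lay above sham for Nr1h4 and Vdr and below sham for 14 of the 15 sinusoidal markers, which fixed those ratios in advance. Of the 19 hepatocyte markers, 18 had a negative log2 fold change, which also raises the ratios. Against stellate transcripts Nr1h4 had no single direction. Vdr per Lrat was 0.00117, 0.00253 and 0.00148 in sham and 0.00659, 0.00902 and 0.00685 in PHx, with no overlap. The Vdr ratio lay above sham for 15 of 18 stellate markers and overlapped for Col1a1, Col1a2 and Dpt, and it lay above for all 19 hepatocyte and all 15 sinusoidal markers. Vdr, taken up for its difference, had a log2 fold change of 3.05 against a median of 1.31 for the stellate markers, which raises these ratios. Its ratios in Sham 1, 3 and 4 rest on 4, 9 and 6 Vdr counts. Smooth muscle and mesothelial markers include genes that also rose. For Nr1h4 these ratios overlapped for 7 of 7 smooth muscle and 5 of 6 mesothelial markers and lay below sham for the other mesothelial one. For Vdr they lay above sham for 6 of 7 smooth muscle and 3 of 6 mesothelial markers and overlapped for the rest. The part that the amount of stellate, smooth muscle or mesothelial RNA plays in either difference was not tested.

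**Figure D1:**
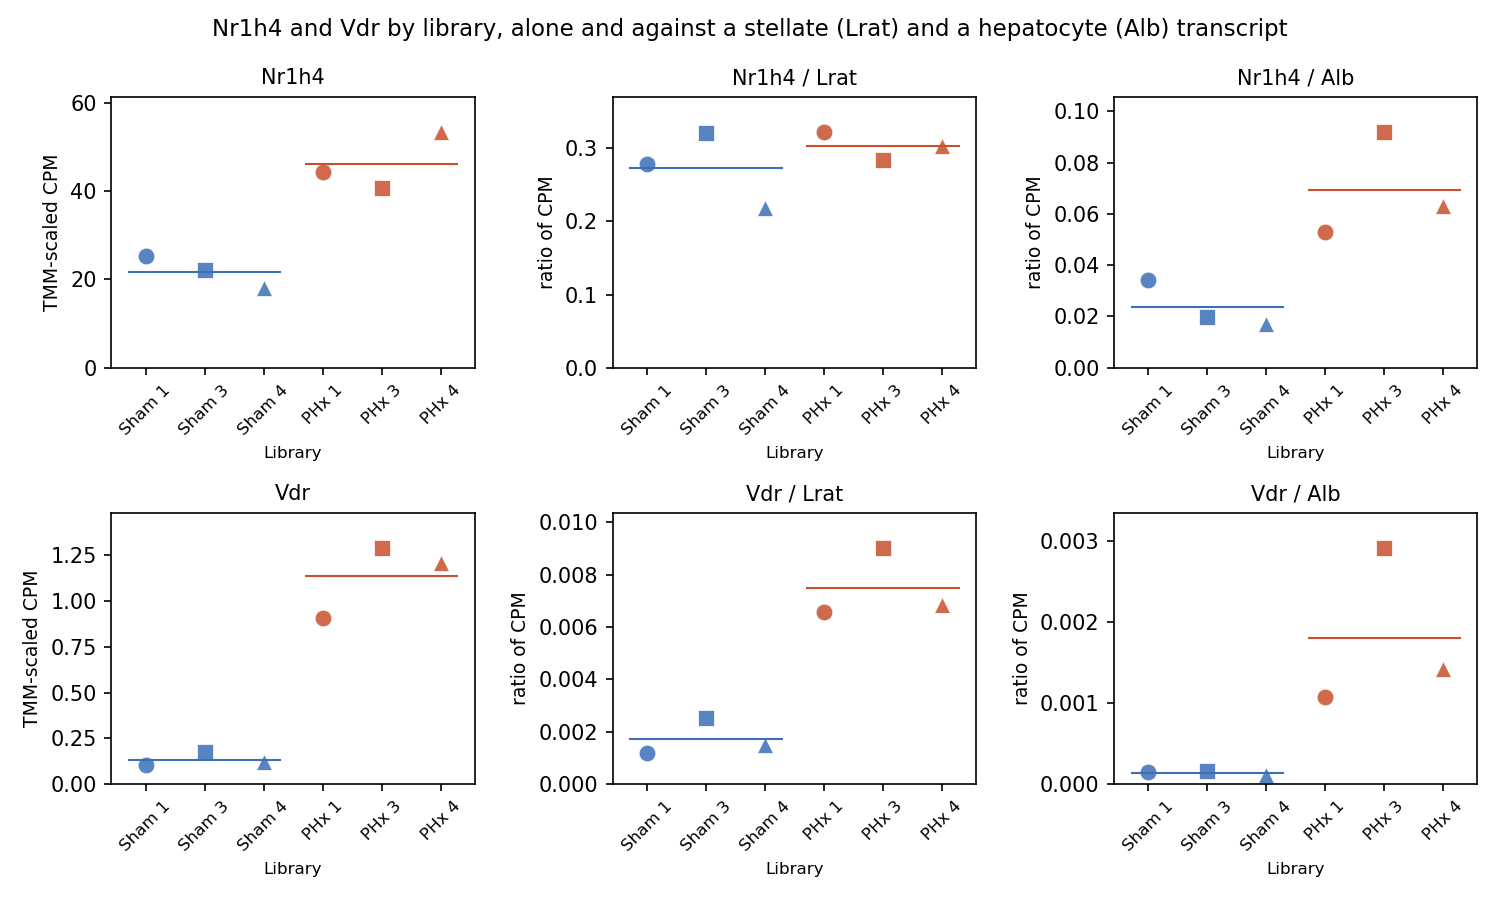
Levels of Nr1h4 (top) and Vdr (bottom) in each library in TMM-scaled CPM, and their ratios to Lrat, a stellate transcript, and Alb, a hepatocyte transcript. Each point is a library, lines are group means and all axes start at 0; the Nr1h4 to Lrat ratios of the groups overlap, whereas the Vdr to Lrat ratios do not. The Vdr values of Sham 1, 3 and 4 rest on 4, 9 and 6 counts.

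The genes whose levels followed Nr1h4 most closely over the 6 libraries were Gucy1a3, Calr4 and Pdgfrb, with Pearson correlations of log2 CPM of 0.999, 0.997 and 0.996. These are the highest values among all tested genes, and the 6 points share the difference between the groups. Gucy1a3, a subunit of soluble guanylate cyclase, rose from a range of 31.9 to 46.1 CPM in sham to 80.1 to 117 CPM in PHx (edgeR adjusted p = 0.0310). Pdgfrb, the PDGF receptor of pericytes and stellate cells, rose from 48.9 ± 10.9 to 160 ± 51.1 CPM (SD, n = 3; edgeR adjusted p = 0.0448). Calr4, a calreticulin-like gene, was scarce, at 0.372 ± 0.0610 and 0.897 ± 0.125 CPM, and was not called (edgeR adjusted p = 0.319).

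Levels differed between receptors over several orders of magnitude. Of the 41 members, 30 had a mean of at least 1 RPKM over the 6 libraries, 17 of at least 10 and 4 of at least 50. The 4 were Nr1d1 at 78.4, Nr1h2 at 62.9, Rarg at 62.2 and Nr2f2 at 62.1 RPKM, followed by Nr4a1 at 48.9 and Rxra at 47.1 RPKM. The first 4 were not ordered beyond their spread, since Nr1d1 alone ran from 52.8 to 106 RPKM. All receptors together summed to 601 ± 56.5 RPKM in sham and 646 ± 16.1 RPKM in PHx (SD, n = 3). By class, the broadly expressed receptors held the most, between 27.8% and 36.1% of the receptor RPKM in a library. The hepatocyte class held between 12.7% and 15.1%, the stellate class between 15.05% and 19.3% and the endothelium class between 8.73% and 13.1%.

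**Figure D2:**
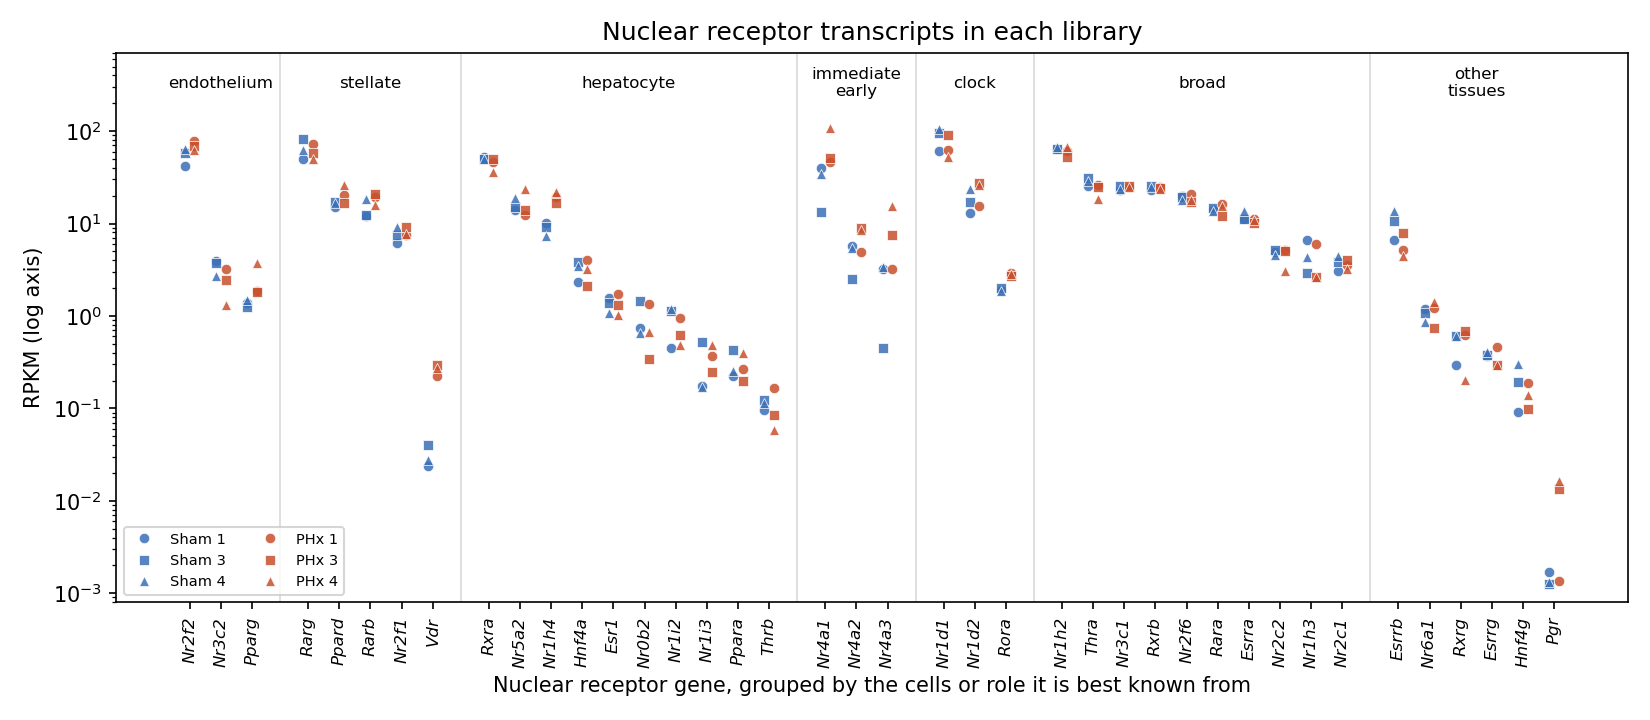
RPKM on a log axis for the 40 receptors with any count, grouped by the cells or role each is best known from; blue points are the 3 sham and orange points the 3 PHx libraries. Nr1d1, Nr1h2, Rarg and Nr2f2 are the highest, and Vdr is the receptor whose groups stand farthest apart.

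The 3 endothelium-class receptors were not called. Nr2f2, the COUP-TFII factor of venous and sinusoidal identity, was at 251, 340 and 377 CPM in Sham 1, 3 and 4 and at 427, 407 and 367 CPM in PHx 1, 3 and 4. PHx 4 fell within the sham range, and the log2 fold change was 0.31 ± 0.17 (SE) with an edgeR adjusted p of 0.481. Pparg, the fatty-acid sensing receptor, was at 5.49, 4.87 and 5.73 CPM in sham and 6.76, 7.04 and 14.5 CPM in PHx. All PHx libraries were above sham, with PHx 4 well above the other PHx libraries (log2 fold change 0.81 ± 0.32 SE, edgeR adjusted p = 0.361). Nr3c2, the mineralocorticoid receptor, had its lowest value in PHx 4, at 6.50 CPM, with overlapping ranges of 13.6 to 19.6 CPM in sham and 6.50 to 14.8 CPM in PHx (log2 fold change -0.62 ± 0.31 SE, edgeR adjusted p = 0.449). The summed level of the class was 59.4 ± 10.9 RPKM in sham and 74.4 ± 7.94 RPKM in PHx (SD, n = 3).

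Of the 5 stellate-class receptors, Vdr was the only one called. Rarb, a retinoic acid receptor that is itself induced by retinoic acid, was at 47.2, 46.8 and 70.9 CPM in sham and 69.3, 79.5 and 60.4 CPM in PHx, with the groups overlapping (log2 fold change 0.34 ± 0.19 SE, edgeR adjusted p = 0.490). Ppard, a broadly lipid-sensing receptor, ran from 49.4 to 54.6 CPM in sham and from 54.3 to 84.4 CPM in PHx (0.35 ± 0.17, adjusted p = 0.436). Rarg, the most abundant retinoic acid receptor here, had a log2 fold change of -0.15 ± 0.19 (SE, edgeR adjusted p = 0.772). Nr2f1, the COUP-TFI relative of Nr2f2, differed by 0.05 ± 0.17 (adjusted p = 0.918). Summed, the class stood at 103 ± 18.1 RPKM in sham and 108 ± 10.6 RPKM in PHx (SD, n = 3), while 10 of the 18 stellate markers rose. The log2 ratio of these sums, 0.07, turned to -0.06 without Sham 1 and to -0.0095 without PHx 1, so the class sum has no settled direction.

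Nr1h4 was likewise the single call among 10 hepatocyte-class receptors. Hnf4a, the master regulator of hepatocyte genes, was at 11.3, 18.0 and 16.6 CPM in sham and 17.8, 9.99 and 15.3 CPM in PHx, with full overlap (log2 fold change -0.09 ± 0.26 SE, edgeR adjusted p = 0.910). Several other members of the class were scarce, each with a mean under 1 RPKM: Nr1i2 (PXR, the drug sensor) had 2.54 ± 1.10 and 1.84 ± 0.547 CPM, Nr0b2 (SHP, the repressor that FXR induces) 1.23 ± 0.546 and 0.976 ± 0.583 CPM and Ppara (the receptor of fatty acid oxidation) 3.24 ± 1.13 and 3.01 ± 1.08 CPM (SD, n = 3). Nr1i3 (CAR) stood at 0.683 ± 0.464 and 0.850 ± 0.278 CPM, but it overlaps the abundant Tomm40l by 1044 bases on the opposite strand, with 225 counts against 6471, so its value is uncertain. Its log2 fold change of 0.31 became 1.001 without Sham 3. Rxra, the shared partner, had 283 ± 10.6 CPM in sham and 240 ± 38.6 CPM in PHx (-0.24 ± 0.14 SE, edgeR adjusted p = 0.505). Nr5a2 (LRH-1) and Esr1 (the oestrogen receptor) had log2 fold changes of 0.03 ± 0.27 and -0.04 ± 0.22, and Thrb, a thyroid hormone receptor, -0.15 ± 0.43 (SE). The class summed to 82.4 ± 0.578 RPKM in sham and 86.6 ± 1.40 RPKM in PHx (SD, n = 3). Rxra alone gave 50.3 ± 1.29 and 43.8 ± 7.04 RPKM of these sums, the largest part of any member. Nr1h4 gave 8.90 ± 1.41 and 19.4 ± 2.68 RPKM. The mean sum was thus higher in PHx while the mean of Rxra was lower and that of Nr1h4 higher.

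Libraries of a group scattered widely in the NR4A receptors, immediate early genes that are induced within minutes of a stimulus and act without a known ligand. Nr4a1 was at 205, 67.8 and 174 CPM in Sham 1, 3 and 4 and at 223, 263 and 555 CPM in PHx 1, 3 and 4. Nr4a2 was at 39.3, 16.9 and 36.7 CPM in sham and 30.9, 62.1 and 58.4 CPM in PHx. Nr4a3 was at 21.1, 2.88 and 21.5 CPM in sham and 19.1, 48.6 and 98.1 CPM in PHx. The PHx libraries were all above sham for Nr4a1 and overlapped for the other pair. Sham 3 had the lowest value of all 3 genes, and PHx 4 the highest of Nr4a1 and Nr4a3. The log2 fold changes were 1.22 ± 0.54, 0.71 ± 0.40 and 1.87 ± 0.94 (SE), with edgeR adjusted p of 0.421, 0.509 and 0.482, so none was called and the interval of Nr4a1, -0.11 to 2.55, includes 0. PHx 4 also stood apart in neutrophil markers, whose 13 genes summed to 518, 278 and 55.8 CPM in sham and to 926, 42.1 and 5351 CPM in PHx. PHx 3, second highest in Nr4a1, had the lowest neutrophil sum. Without PHx 4 the log2 fold changes of Nr4a1, Nr4a2 and Nr4a3 were 0.71, 0.59 and 1.16. Over all left-out libraries they ran from 0.71 to 1.498, from 0.38 to 0.95 and from 1.16 to 2.27, with none called. The part of neutrophil RNA in the NR4A values was not tested.

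**Figure D3:**
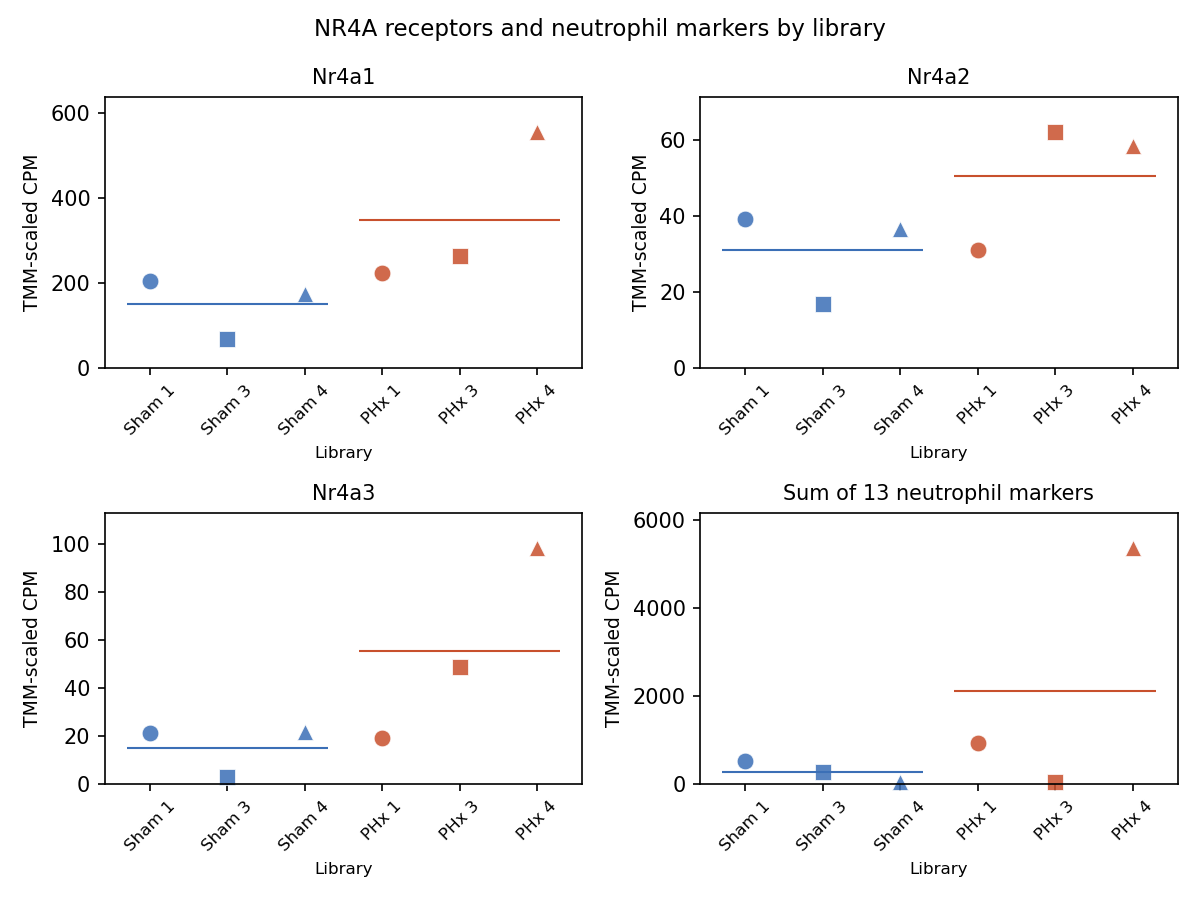
TMM-scaled CPM of Nr4a1, Nr4a2 and Nr4a3 and the sum of 13 neutrophil markers in each library, with points for libraries and lines for group means. PHx 4 is highest for Nr4a1, Nr4a3 and the neutrophil sum, and Sham 3 is lowest for the 3 receptors.

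Among the 3 clock receptors, Rora, an activator of Arntl (Bmal1), came closest to a call. It was at 37.8, 39.1 and 36.5 CPM in Sham 1, 3 and 4 and at 53.2, 53.0 and 55.5 CPM in PHx 1, 3 and 4, with narrow spread and no overlap. The log2 fold change was 0.51 ± 0.09 (SE), with an edgeR adjusted p of 0.0605. Of 15 alternative settings 2 called it, DESeq2 (adjusted p = 0.0145) and edgeR with a filter of at least 1 CPM in 3 libraries (0.0422). The others did not, among them limma-voom (0.0728), upper-quartile scaling (0.0771), no filter (0.0930) and every left-out library (0.0982 to 0.325), with the log2 fold change between 0.45 and 0.53 over all 15. Nr1d1 (REV-ERBα), a repressor of Arntl, was at 174, 265 and 297 CPM in sham and 164, 256 and 147 CPM in PHx, with overlap (-0.38 ± 0.27 SE, edgeR adjusted p = 0.591). Its relative Nr1d2 ran from 62.6 to 112 CPM in sham and 66.7 to 130 CPM in PHx (0.33 ± 0.31, adjusted p = 0.681). The hour of sampling is not given in the labels.

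The 10 broadly expressed receptors had log2 fold changes between -0.36 and 0.03 and no call. Nr3c1, the glucocorticoid receptor, had 199.6 ± 8.61 CPM in sham and 204 ± 10.3 CPM in PHx, a difference of 0.03 ± 0.10 (SE) on the log2 scale. Rxrb and Nr2f6 differed by -0.05 ± 0.09 and -0.07 ± 0.10, and Nr1h2 (LXRβ, an oxysterol receptor) by -0.14 ± 0.12 (SE). Nr1h3 (LXRα), its relative, was scarcer per length, at 4.65 ± 1.90 RPKM in sham and 3.77 ± 1.94 RPKM in PHx (SD, n = 3), against 65.2 ± 1.16 and 60.6 ± 7.68 RPKM for Nr1h2. Thra, the main thyroid hormone receptor here, was at 95.8, 115 and 108 CPM in sham and between 68.9 (PHx 4) and 92.3 CPM (PHx 3) in PHx. In TMM-scaled CPM all PHx libraries were below sham, with a log2 fold change of -0.34 ± 0.14 (SE) and an edgeR adjusted p of 0.372. In RPKM the groups overlapped, with Sham 1 at 25.3 and PHx 1 at 26.0. Thra shares 1075 bases with Nr1d1 on the opposite strand, and since the use of strand in counting is not stated, reads there cannot be told apart. Esrra, an orphan receptor of mitochondrial genes, also lay below sham in all PHx libraries in TMM-scaled CPM (-0.20 ± 0.12 SE, edgeR adjusted p = 0.514). Its groups overlapped in RPKM, with Sham 1 at 11.1 and PHx 1 at 11.2. Rara, Nr2c1 and Nr2c2 had log2 fold changes of 0.03, -0.10 and -0.19, and Nr2c2 shares 3547 bases with Mrps25 on the opposite strand.

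Of 7 receptors best known from other tissues, Esrrb was the abundant one. This orphan receptor of stem and retinal cells was at 6.63, 10.6 and 13.7 RPKM in sham and 5.13, 7.93 and 4.49 RPKM in PHx. PHx 3 lay within the sham range, and the log2 fold change was -0.84 ± 0.32 (SE, edgeR adjusted p = 0.363), the lowest of the tested receptors. Its mean of 8.07 RPKM ranked 18th. Rxrg, Hnf4g, Esrrg and Nr6a1 had means between 0.169 and 1.08 RPKM, overlapping groups and no call. Rorb had 0 counts in every library, and Pgr, the progesterone receptor, had 1, 1 and 1 counts in sham and 1, 10 and 12 in PHx, under the filter on low counts.

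**Figure D4:**
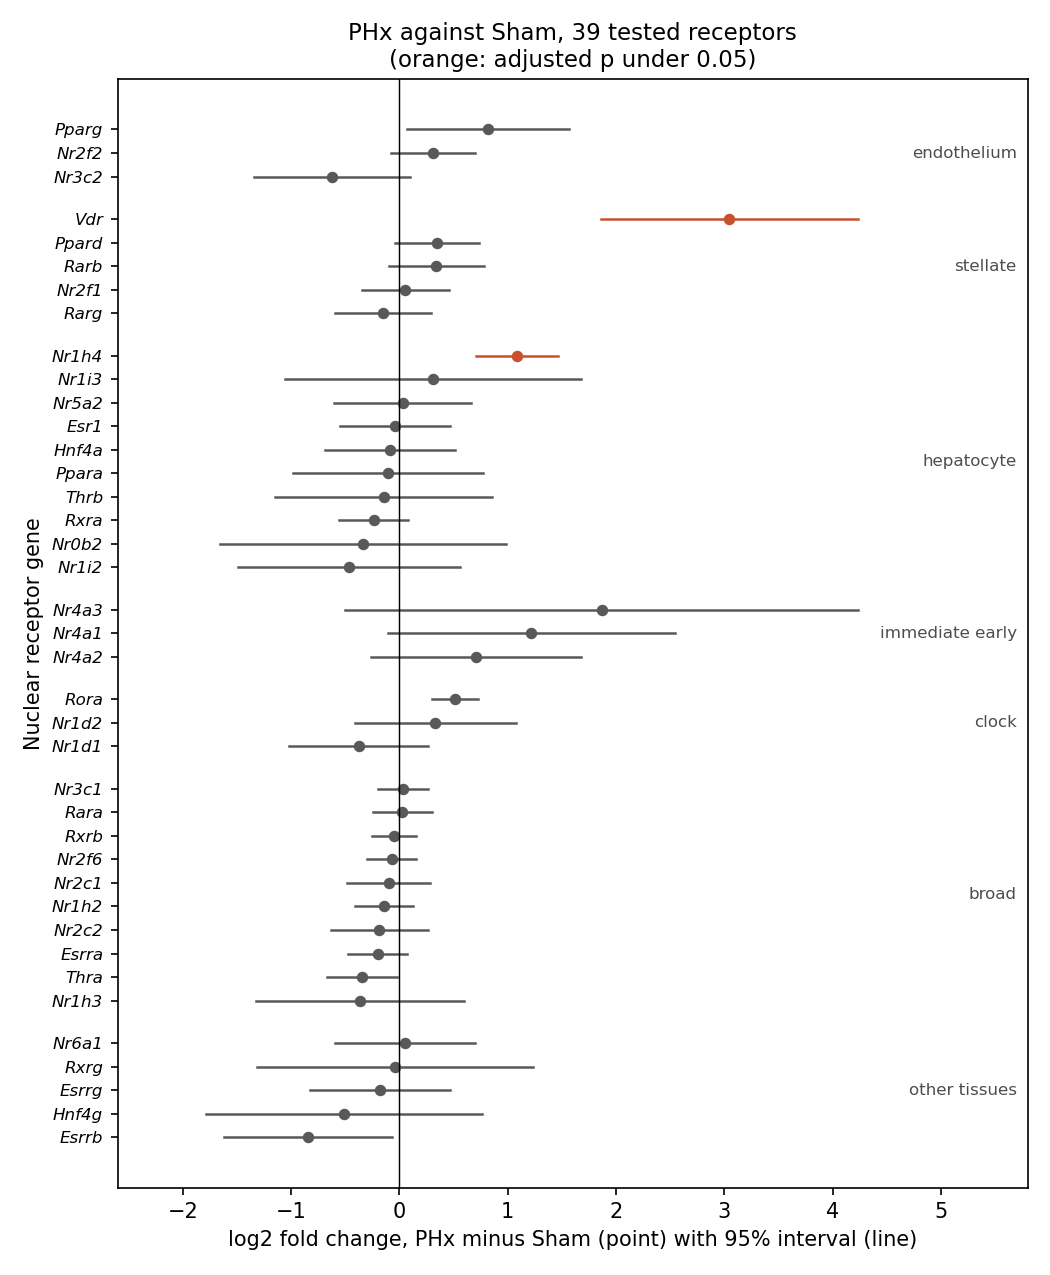
Log2 fold change of PHx minus Sham (point) with its 95% interval (line) for the 39 tested receptors, by class; orange marks an adjusted p under 0.05. Nr1h4 and Vdr are the orange pair, and the NR4A receptors have wide intervals beside the narrow ones of the broad class.

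Genes that work with or downstream of the receptors were counted from lists, each with its median log2 fold change beside 0.03 for all genes. With 0.862% of all genes called, a count of 0 in a list of this size is near the background and says nothing about the list. Of 18 coactivators and corepressors 0 were called (median -0.04), with Ncoa3 at -0.52 ± 0.18 and Ncor1 at 0.03 ± 0.11 (SE). Of 15 clock partners 0 were called (median 0.58): Bhlhe40 and Per1 had log2 fold changes of 0.79 ± 0.35 and 0.73 ± 0.19, and DESeq2 called Per1 (adjusted p = 0.0300). Of 10 tested retinoic acid genes 0 were called (median 0.33). Cyp26b1, which degrades retinoic acid, ran from 170 to 1435 CPM in sham and from 139 to 706 CPM in PHx, and Tgm2 differed by 0.05 ± 0.16 (SE). Genes of that list that DESeq2 called higher included Aldh1a2 and Aldh1a3. Of 10 LXR targets 0 were called (median -0.22), where Apoe, the lipoprotein ligand, stood at 3169 ± 315 and 1898 ± 199 CPM (SD, n = 3; edgeR adjusted p = 0.103) and Mylip at 728 ± 19.1 and 458 ± 205 CPM. DESeq2 called Apoe lower (adjusted p = 0.000372) and Scd2 higher (0.0352).

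Of 11 tested PPAR targets 0 were called by edgeR (median 0.06), with the fatty acid carriers Cd36 and Fabp4 at log2 fold changes of 0.06 ± 0.18 and 0.29 ± 0.16 (SE), and DESeq2 called Angptl4 and Lpl higher. Of 10 glucocorticoid and mineralocorticoid targets 0 were called by either tool (median -0.03), with Dusp1 and Sgk1 at 0.07 ± 0.25 and 0.18 ± 0.22 (SE). Of 9 tested FXR, PXR and CAR targets 0 were called by either tool (median -0.02). Among these, Cyp3a11 was at 14.7 ± 7.23 and 19.2 ± 7.55 CPM and Abcb11, the bile salt export pump that FXR induces in hepatocytes, at 8.11 ± 1.84 and 6.79 ± 2.56 CPM (SD, n = 3). Of 4 thyroid hormone targets 1 rose: Me1, the malic enzyme, went from 9.68 ± 0.576 to 19.2 ± 2.37 CPM (SD, n = 3; log2 fold change 0.98, edgeR adjusted p = 0.0363). Thrsp of the same list was at 8.09 ± 0.336 and 3.37 ± 0.922 CPM, and DESeq2 called it lower (adjusted p = 0.000253). Of 10 endothelial genes related to COUP-TF 0 were called by either tool (median -0.20), with Nrp1 and Notch1 at -0.49 ± 0.23 and -0.31 ± 0.15 (SE). An unadjusted p under 0.05, which 12.7% of all genes had, was found for 2 of 18 cofactors, 3 of 15 clock partners, 4 of 10 retinoic acid genes, 2 of 10 LXR targets and 2 of 11 PPAR targets. It was found for 0 of 10 glucocorticoid and mineralocorticoid targets, 1 of 9 FXR, PXR and CAR targets, 2 of 4 thyroid hormone targets and 4 of 10 COUP-TF related genes.

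Markers of other cells moved as follows. Of 18 stellate markers 10 rose (median 1.31), among them Col3a1 (2.51 ± 0.18 SE), Col1a2 (2.78 ± 0.28), Des (1.30 ± 0.15) and Lum (1.68 ± 0.20). Of 7 smooth muscle markers 4 rose (median 1.24), namely Mylk, Acta2, Myl9 and Tagln. Of 6 mesothelial markers 2 rose, Upk1b (2.88 ± 0.42) and Msln (2.53 ± 0.38). Of 15 sinusoidal markers 0 were called by edgeR and 4 were lower by DESeq2 (median -0.56). All 3 PHx libraries lay below sham for 14 of the 15, against 9.96% of all genes. Of 19 hepatocyte markers 0 were called by either tool (median -0.42), with Alb at 972 ± 206 and 710.1 ± 232 CPM and Serpina3k at 172 ± 3.24 and 89.6 ± 54.8 CPM (SD, n = 3). Of 13 neutrophil markers 0 were called by either tool (median 3.01): S100a9 ran from 10.8 to 140 CPM in sham and from 9.56 to 1440 CPM in PHx, and Ngp from 2.56 to 25.8 and from 4.01 to 714 CPM. Neither tool called any of 11 Kupffer cell markers, such as Csf1r (-0.35 ± 0.40 SE) and C1qb (0.61 ± 0.41), or of 9 lymphocyte markers, such as Ighm (0.63 ± 0.41) and Nkg7 (-0.61 ± 0.46). An unadjusted p under 0.05, against 12.7% of all genes, was found for 16 of 18 stellate, 6 of 7 smooth muscle, 4 of 6 mesothelial and 12 of 15 sinusoidal markers. It was found for 1 of 13 neutrophil markers and for 0 of 19 hepatocyte, 0 of 11 Kupffer cell and 0 of 9 lymphocyte markers.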

How the data were processed

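RNA sequencing of 6 libraries was used, 3 sham and 3 PHx. The deposited table gives whole-number read counts per gene and library, RPKM values and a gene length. Per the submitters' processing notes, bcl2fastq and TopHat2 2.0.13 were used with mm10 (GRCm38). The counting program, annotation and use of strand are not given in the sources used here. The RPKM deposited by the authors equalled count over length and library total in 100% of entries when compared with a relative tolerance of 1e-06. RPKM served for levels between genes and counts for tests.

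Counts were fitted with edgeR 4.0.16 in R 4.3.3 (TMM scaling, filterByExpr, robust quasi-likelihood F-test, group as the only term), and p-values were adjusted by Benjamini-Hochberg over 19033 genes. SE was taken as the size of the log2 fold change over the root of its F statistic. CPM are TMM-scaled, with mean ± SD over 3 libraries. The script was tested on simulated data. No library was a copy of another (chi-square per degree of freedom of at least 55.7 in every pair). Alternatives used other scalings and filters, DESeq2 1.42.0, limma-voom 3.58.1, a replicate block and left-out libraries.

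All 41 receptors are named. Of each of 10 pathway and 8 marker lists, up to 4 called genes with the smallest adjusted p are named, or the 2 most abundant, and further genes that DESeq2 called were added after their values were seen; a withheld item is not reported here. Of 205 listed genes, 2 were not matched by name. The members and lists were chosen with earlier results of these data known.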

Additional observations from a re-analysis of the deposited data

How the results depend on the processing

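The 2 receptors called higher (edgeR) became 1 with upper-quartile factors and with limma-voom, 0 with the replicate block and 0 to 1 when a library was left out; DESeq2 called 3. After the data were seen, leaving out Sham 4 with DESeq2 (2 receptors) and both Sham 4 and PHx 4 with edgeR (0 receptors) were added. In that last fit the adjusted p was 0.130 for Nr1h4 and 0.312 for Vdr. At an unadjusted p under 0.05 it still had 5 receptors higher, the block 5, and the left-out libraries 3 to 7. No setting called a receptor lower. Vdr was not tested under the filter of at least 1 CPM, where Rora took its place among the 2 calls. Nr1h4 kept a log2 fold change between 0.84 and 1.18 and Vdr between 2.89 and 3.25 over all settings.

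Over all genes, 161 higher and 3 lower calls became 359 and 30 with no filter, 727 and 84 with DESeq2, 14 and 1 with the block, 558 and 50 when DESeq2 left out Sham 4, and 24 and 1 in edgeR without both Sham 4 and PHx 4. Leaving out a library gave 0 to 160 higher and 0 to 9 lower; both were 0 without Sham 4, with 1240 higher and 1001 lower at an unadjusted p under 0.05. Correlations between same-numbered libraries were -0.09, -0.23 and 0.03. With 3 libraries per group these values cannot settle whether the libraries were paired, so the block results rest on a shared number only. Under the block the adjusted p was 0.154 for Nr1h4 and 0.179 for Vdr.

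Uncalled receptors changed sign, many of them near 0, but also Nr0b2 and Nr1i3, whose log2 fold changes in the main fit were -0.33 and 0.31. With upper-quartile factors Nr5a2 was -0.013, Rara -0.0099 and Nr3c1 -0.00098; with no filter Nr5a2 was -0.0042 and Rara -0.0048; Nr5a2 was -0.026 with limma-voom and -0.025 with the block. With DESeq2 without Sham 4, where the median of all genes was 0.12, Rara was -0.016, Nr2c1 0.016, Nr3c1 -0.00010, Rxrg 0.092 and Nr6a1 -0.097. Without both Sham 4 and PHx 4, Nr1i3 was -0.24, Nr5a2 -0.19, Thrb 0.14, Rara -0.065, Nr2c1 0.098, Rxrg 0.48 and Nr6a1 -0.31. Leaving out a library gave these ranges: Esr1 -0.214 to 0.113, Hnf4a -0.29 to 0.107, Nr0b2 -0.902 to 0.0623, Nr2c2 -0.336 to 0.0137, Nr2f1 -0.0975 to 0.175, Nr3c1 -0.0194 to 0.0661, Nr5a2 -0.321 to 0.218, Nr6a1 -0.169 to 0.259, Ppara -0.431 to 0.188, Rara -0.0359 to 0.122, Rarg -0.325 to 0.0163, Rxrg -0.377 to 0.325, Thrb -0.626 to 0.129. The summed hepatocyte class had a log2 ratio of 0.07 in RPKM and -0.07 in CPM. The cause of these changes was not tested, and 3 libraries per group limit the precision.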
